A study of Danio rerio with 10 samples.

Results

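The 5 dpf comparison set 2 libraries from larvae homozygous for a CRISPR/Cas9-induced ebf3a allele against 2 libraries from wild-type (WT) larvae, 4 of the 10 libraries of the series. Every library came from a pool, so the replicate is a pool of 10 to 12 larvae and not an animal. The allele is a frameshift raised in the AB strain and kept as 1 mutant line, and RNA was taken from the front of each larva while the rear was used for genotyping. The labels call the 5 dpf tissue the head with eyes and the 2 dpf tissue the upper body with eyes, and their extraction text names 6 dpf where the titles give 5 dpf. For levels at the earlier age, 2 homozygous, 2 heterozygous and 2 WT libraries of 2 dpf were used, each a pool of 15 to 20 embryos. Genes were picked as members by one rule. The level in homozygotes had to differ from WT by at least 1.5-fold in the replicate 1 pair and again in the replicate 2 pair, with the same sign. Of 36351 gene IDs, 23654 had enough reads to be tested at 5 dpf, and 485 of these met the rule.

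Ebf3 is a transcription factor of the Collier/Olf/EBF family, which binds DNA through a zinc-coordinating domain and dimerizes through a helix-loop-helix region. Members of the family act as neurons leave the progenitor state and take on their mature identity. Larval zebrafish express ebf3a in Purkinje cells, the output neurons of the cerebellar cortex, and in sensory systems such as smell and the lateral line, which senses water movement. Transcripts of a neuron type can fall in bulk RNA because there are fewer such cells or because each cell holds less of the transcript, and these cannot be told apart here. The files list genes by the IDs of the Lawson Lab annotation only, and 0 of the IDs could be matched to a gene name in the reference tables used. Functions of single genes, the level of ebf3a itself and markers of cell types were therefore not analysed here.

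Levels are given in CPM, the gene count scaled to the TMM-adjusted size of its library. The 4 libraries of 5 dpf held between 36165011 and 45882083 reads counted on genes, and those of 2 dpf between 30070283 and 47797511. At 5 dpf the replicate number separated the libraries more than the genotype did, and the first principal component, with 62.2% of the variance, parted both replicate 1 libraries from both replicate 2 libraries. Between replicate 1 and replicate 2, 2226 genes were at least 1.5-fold apart in the same direction in both genotypes, and 314 in opposite directions. The same-direction set made up 9.41% of all genes tested and held 133 of the 485 members, or 27.4%, and its part in the results was not tested. The labels give the replicate numbers but do not say that a number marks a shared clutch, day or batch.

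Genes that were lower in homozygotes outnumbered genes that were higher. Of the 485 members, 327 were lower in both pairs, which is 1.38% of all genes tested, and 158 were higher, which is 0.668%. Together they made up 2.05% of the genes tested. These values chose the members, so the counts are a description and carry no test. Another 408 genes differed by at least 1.5-fold in both pairs but with opposite signs, 263 of them lower in pair 1 and higher in pair 2. The excess of lower genes was wider in pair 1, with 2145 genes lower and 966 higher, than in pair 2, with 1198 lower and 1036 higher. Across the genes tested, the log2 changes of the 2 pairs had a correlation of 0.06, and genes are not independent replicates. The pair with the smaller change was at a log2 of 0.585 in the members nearest the limit and at 0.584 in the nearest genes left out, and 87 members lay within 0.05 above the limit. When at least 1.5-fold was asked of all 4 homozygous to WT library pairs, so that no pairing was used, 138 genes were lower and 73 higher.

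**Figure D1:**
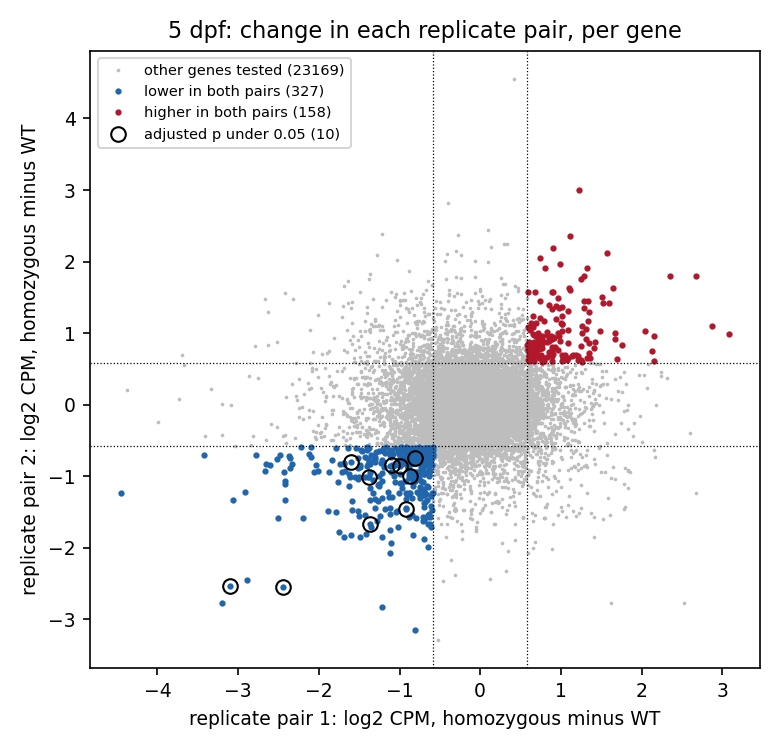
Log2 CPM (prior count 2) of homozygous minus WT in replicate pair 1 (x axis) and replicate pair 2 (y axis) at 5 dpf, 1 point per gene tested, with dotted lines at 1.5-fold. The 327 genes lower in both pairs sit at the lower left, the 158 higher in both at the upper right, and all 10 genes with an adjusted p under 0.05 (circles) lie among the lower ones.

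Most members were weakly expressed. Their median level over the 4 libraries was 0.570 CPM, against 10.7 CPM for all genes tested. Below 0.5 CPM lay 215 members, and 162 members reached 1 CPM, 123 of them lower and 39 higher. For the 4 libraries of a member, the lowest count was 11 reads and the highest 41 reads at the median, so counting error alone is large for many of them. Above 10 CPM, 29 genes were lower and 7 higher in both pairs, and 49 had opposite signs, all of these lower in pair 1 and higher in pair 2. The 29 abundant lower genes had log2 fold changes between -2.51 and -0.59, and in 22 of them the homozygous and WT libraries did not overlap. The 7 abundant higher genes lay between 0.65 and 0.77, and none overlapped. Over all members 393, or 81.0%, had no overlap between the groups. For all genes tested, 11.0% were lower and 9.47% higher with no overlap between the groups, and the rule itself asks for such a separation within each pair.

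**Figure D2:**
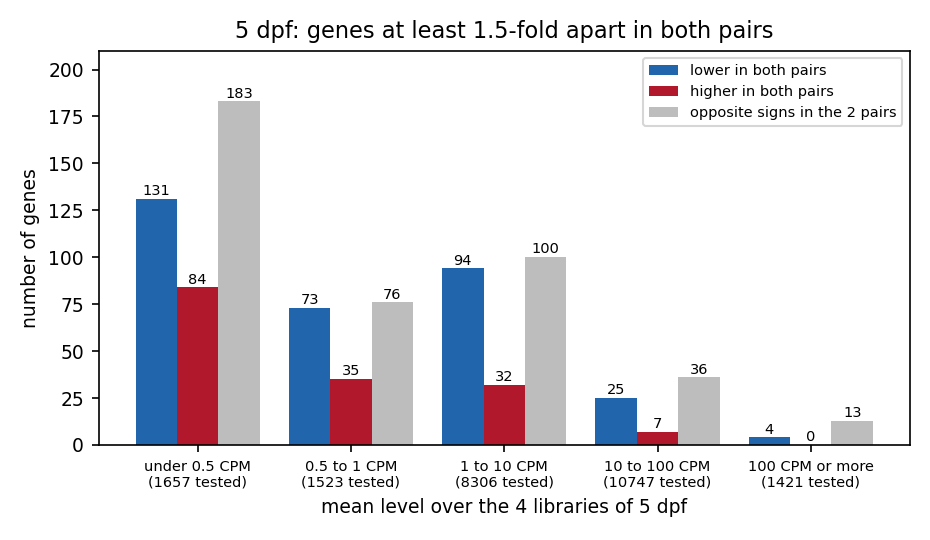
Number of genes at least 1.5-fold apart in both 5 dpf pairs, by mean level over the 4 libraries (x axis, number tested in parentheses), for genes lower in both pairs, higher in both pairs or opposite in sign. Under 0.5 CPM 131 were lower, 84 higher and 183 opposite, and at 100 CPM or more 4 were lower, 0 higher and 13 opposite.

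With the replicate number as a block, 10 genes had an adjusted p under 0.05, or 0.0423% of the genes tested. This fit left almost no residual degrees of freedom per gene, so its p-values and SEs lean on the spread estimated over all genes. The p-values came from the quasi-likelihood F-test of edgeR, called edgeR QL from here on, and were adjusted over all genes by the Benjamini-Hochberg (BH) procedure. All 10 were lower in homozygotes and all were members. With the block and the same filter on low counts no gene was called higher by edgeR. In that fit 483 genes, or 2.04%, had an unadjusted p under 0.05 in that direction, against 1198 lower genes, or 5.06%. In both directions the share was 7.11%. DESeq2's Wald test with the same block called 25 lower and 4 higher. The 10 calls rest on the block, since without it edgeR called 0 genes and 278 had an unadjusted p under 0.05. They also depend on the filter on low counts, as edgeR called 30 genes lower and 7 higher with at least 10 counts in every library, and 199 lower and 50 higher with no filter.

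LL0000004321 had the smallest p of all genes. In homozygous replicates 1 and 2 it was at 5.41 and 5.65 CPM, and in WT replicates 1 and 2 at 29.7 and 33.4 CPM. Each homozygous library was far below each WT library, and the replicates of a genotype lay close together, with means of 5.53 ± 0.171 CPM (SD, n = 2) for homozygotes against 31.6 ± 2.65 CPM (SD, n = 2) for WT. On the log2 scale the difference was -2.51 (SE 0.14, BH-adjusted p = 4.6e-05, edgeR QL). Without the block the fold change stayed at -2.51, with an adjusted p of 0.196 (edgeR QL), and over all alternatives the adjusted p ranged from 9.79e-27 to 0.937. At 2 dpf LL0000004321 was close to the limit of detection, with 11 and 12 WT reads, 0 and 3 heterozygous reads and 0 and 0 homozygous reads. Against a floor of 3 reads over both homozygous libraries, the WT level at 2 dpf was 5.12-fold higher in CPM. This ratio leaves out the counting error of the 23 WT reads and the spread between replicates. LL0000004321 did not reach the read minimum for the 2 dpf test. With no filter its adjusted p was 0.245 (edgeR QL), where 3.01% of all genes were called.

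LL0000015434 had the lowest log2 fold change of the called genes. It was at 0.459 and 0.737 CPM in the homozygous libraries, from 19 and 27 reads, and at 4.32 and 4.51 CPM in the WT libraries, from 163 and 208 reads. The groups were well apart, at 0.598 ± 0.197 CPM (SD, n = 2) against 4.41 ± 0.135 CPM (SD, n = 2), a log2 fold change of -2.90 (SE 0.31, BH-adjusted p = 0.0143, edgeR QL). Without the block its fold change was -2.88 with an adjusted p of 1.00 (edgeR QL), within a range over the alternatives of 1.62e-08 to 1.00. At 2 dpf it held 6 and 6 reads in homozygotes, 6 and 8 in heterozygotes and 10 and 10 in WT. On the CPM scale both homozygous libraries, at 0.199 and 0.195, were slightly below both WT libraries, at 0.229 and 0.209, and with so few reads the gene was not tested there.

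The other 8 called genes were lower by smaller amounts, with log2 fold changes from -1.51 to -0.77. Over all genes tested 11.0% were lower with no overlap between the groups, and the same libraries served to choose the called genes. In 7 of the 8 both homozygous libraries were below both WT libraries. One of these, with a log2 fold change of -1.20, was at 16.0 and 11.7 CPM in homozygotes and at 41.6 and 23.7 CPM in WT, so that replicate 1 was above replicate 2 in each genotype. Another, with a log2 fold change of -0.97, was at 32.6 and 47.7 CPM in homozygotes and at 69.9 and 85.7 CPM in WT, and there replicate 2 was the higher one. The gene with the largest of these fold changes, -1.51, was tested at 2 dpf and not called (log2 fold change 0.31, adjusted p = 0.916, edgeR QL). The exception, with the smallest fold change, was at 37.4 and 68.2 CPM in homozygotes and 65.2 and 114 CPM in WT, so that homozygous replicate 2 exceeded WT replicate 1. In that gene replicate 2 was above replicate 1 in both genotypes, and homozygotes were lower in 3 of the 4 library comparisons. At 2 dpf this gene had a log2 fold change of the other sign, 0.41 (adjusted p = 0.126, edgeR QL), and the difference between ages did not pass (adjusted p = 0.0522, edgeR QL). The called genes had mean levels from 2.50 to 109 CPM.

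**Figure D3:**
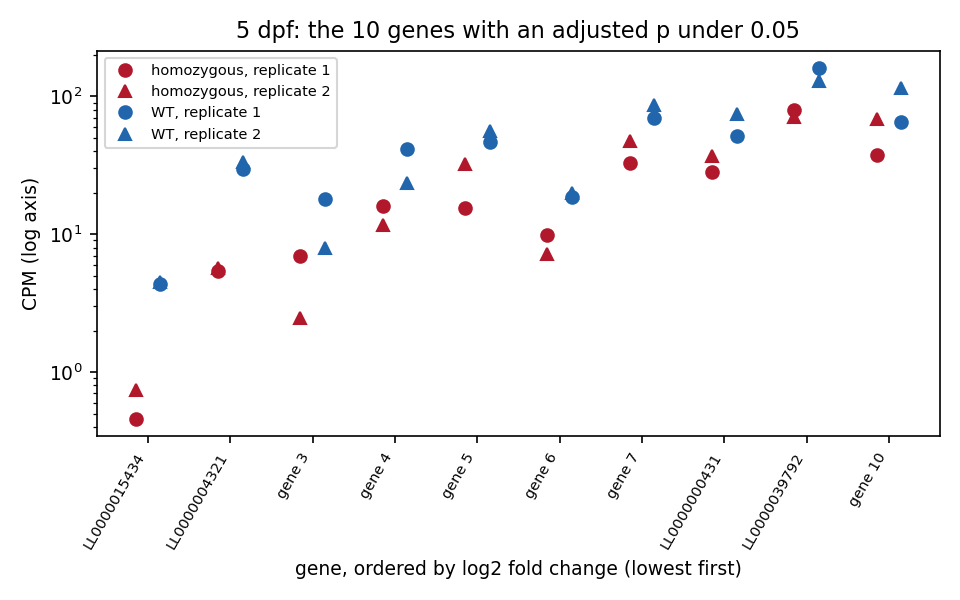
CPM (log axis) of the 10 genes with an adjusted p under 0.05 in each 5 dpf library, ordered by log2 fold change, with circles for replicate 1 and triangles for replicate 2. LL0000015434 and LL0000004321 show the widest gaps between homozygotes and WT, and in the gene at the far right homozygous replicate 2 (68.2 CPM) lies above WT replicate 1 (65.2 CPM).

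The most abundant member was also lower in homozygotes. It was at 1835 and 2519 CPM in the homozygous libraries and at 2816 and 4777 CPM in the WT libraries, with no overlap. Its log2 fold change of -0.77 had a BH-adjusted p of 0.0663 (edgeR QL) and was not called. At 2 dpf it was at 1112 and 1133 CPM in homozygotes and at 2487 and 2436 CPM in WT, and the difference was called (BH-adjusted p = 0.00425, edgeR QL). The 2 heterozygous libraries of that age stood apart from each other, at 1163 and 2214 CPM.

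No higher member was called, and the smallest adjusted p among the 158 was 0.0642 (edgeR QL). The highest log2 fold changes at a mean of at least 1 CPM belonged to LL0000003785 and LL0000029321. LL0000003785 was at 1.28 and 3.14 CPM in homozygotes and at 0.662 and 0.650 CPM in WT, so the homozygous libraries were both higher but differed more from each other than the WT libraries did. Its log2 fold change was 1.66 (SE 0.40, BH-adjusted p = 0.210, edgeR QL). In fits without the block it was 1.74 with all 4 libraries, 0.97 without homozygous replicate 2 and 2.25 without homozygous replicate 1. It was 1.76 without either WT replicate. At 2 dpf LL0000003785 was listed at 0 to 0.298 CPM and was not tested. LL0000029321 was at 3.67 and 1.20 CPM in homozygotes and at 1.67 and 0.195 CPM in WT. The groups overlapped, and replicate 1 was above replicate 2 in both genotypes. Its log2 fold change of 1.63 (SE 0.39) had an adjusted p of 0.205 (edgeR QL). In fits without the block it was 1.41 with all 4 libraries, 0.39 without homozygous replicate 1 and 2.02 without homozygous replicate 2. It was 0.57 without WT replicate 2 and 3.63 without WT replicate 1. At 2 dpf LL0000029321 was at 9.47 and 7.62 CPM in homozygotes and at 7.33 and 7.06 CPM in WT, with a log2 fold change of 0.25 (adjusted p = 0.539, edgeR QL). Both higher genes were called when no filter on low counts was used, with adjusted p-values of 0.00897 and 0.00658 (edgeR QL), and in no other edgeR alternative, where the adjusted p ranged up to 1.00.

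The 2 dpf libraries were not used to choose the members and allowed a separate test. Of the 485 members, 271 had enough reads to be tested at 2 dpf, 184 of the lower and 87 of the higher ones. Among the 184 lower members, 9 were also lower in 2 dpf homozygotes than in WT at an adjusted p under 0.05, or 4.89%, and 0 were higher (edgeR QL over all genes of 2 dpf). Over the 21336 genes tested at both ages, 0.778% were called lower and 0.909% higher, and over all 22383 genes tested at 2 dpf the shares were 0.746% and 0.871%. At an unadjusted p under 0.05, 27 of the 184 were lower, or 14.7% against 7.15% of all genes, and 2 were higher, or 1.09% against 7.04%. Their median log2 fold change at 2 dpf was -0.22, against 0.00 over all genes tested at both ages, and 62.0% of them were below 0, against 49.7%. DESeq2's Wald test also called 9 lower and 0 higher. The fits without 1 library each tested 214 to 226 of the lower members. Without homozygous replicate 1, WT replicate 1 or WT replicate 2 the number called lower was 5, 5 or 4, and without homozygous replicate 2 it was 14.

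All 9 of these calls fell among the 88 tested lower members with a mean of at least 1 CPM at 5 dpf. The scarcer lower members gave no call. At an unadjusted p under 0.05 (edgeR QL), 22.7% of the 88 were lower, against 7.41% of all genes of that level. The share called was larger still among abundant lower members. Of the 25 lower members above 10 CPM that were tested at 2 dpf, 6 were called lower, or 24.0%, against 132 of 12003 genes of that level. Of the 10 genes called at 5 dpf, 5 were tested at 2 dpf and 2 of these were called lower there. Measured by the 1.5-fold rule in both numbered pairs of 2 dpf, 27 of 184 lower and 5 of 87 higher members kept their direction. The other direction was met by 11 of the 271, or 4.06%. Over all 22383 genes tested at 2 dpf, 2.95% met that rule as lower and 2.41% as higher. Scarce genes meet such a rule more often, at 5 dpf 13.0% under 0.5 CPM against 0.296% at 10 CPM or more. Most members are scarce, and no share at a matched level was computed for 2 dpf.

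The higher members did not shift together at 2 dpf. Of 87 tested, 2 were called higher and 1 lower, against 0.909% and 0.778% of all genes. Their median log2 fold change was -0.08, and 50.6% were below 0. The 7 higher members with a mean of at least 10 CPM had a median of -0.46 at 2 dpf. Of these, 71.4% were below 0, against 48.7% of all genes of that level. Among the 7, 1 was called lower and 1 higher, against 132 lower and 173 higher of 12003 genes of that level. Each called share among the 7 rests on 1 gene, and the share below 0 on 5 genes.

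**Figure D4:**
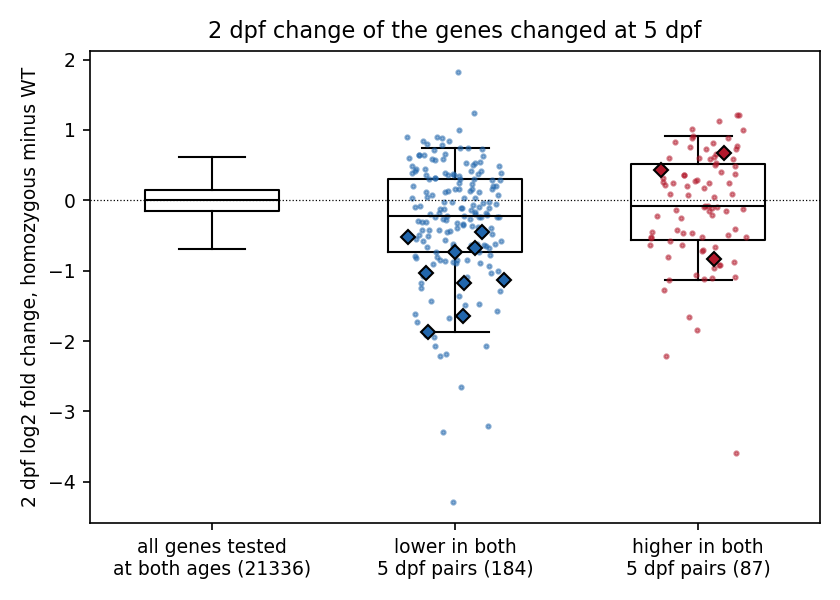
Log2 fold change of homozygotes against WT at 2 dpf for all 21336 genes tested at both ages, the 184 lower members and the 87 higher members. Boxes give the median and quartiles, whiskers the 5th and 95th percentiles, points single members and diamonds members with an adjusted p under 0.05 at 2 dpf. All 9 diamonds of the lower members are below 0, and of the 3 diamonds of the higher members 2 are above 0.

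Of the 10 genes called at 5 dpf, LL0000039792 and LL0000000431 were called lower at both ages, and they were singled out after their values were seen. LL0000039792 was at 79.9 and 70.5 CPM in 5 dpf homozygotes and at 159 and 128 CPM in WT. At 2 dpf it was at 173 and 182 CPM in homozygotes, 345 and 314 CPM in heterozygotes and 370 and 359 CPM in WT. Every homozygous library was below every WT library at both ages, while the 2 dpf heterozygotes lay just below WT. The log2 fold change of LL0000039792 was -0.93 (SE 0.11, adjusted p = 0.0150) at 5 dpf and -1.04 (SE 0.06, adjusted p = 3.6e-07) at 2 dpf, by edgeR QL. The interaction test between ages, which called 0.0121% of genes, did not call it (difference 0.16, SE 0.11, adjusted p = 0.746, edgeR QL).

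LL0000000431 was at 28.1 and 37.0 CPM in 5 dpf homozygotes and at 51.2 and 74.2 CPM in WT. At 2 dpf it was at 102 and 100.1 CPM in homozygotes, 123 and 145 CPM in heterozygotes and 147 and 144 CPM in WT. Homozygotes were the lowest group at both ages, and heterozygous replicate 2 was at the WT level. For LL0000000431 the log2 fold change was -0.93 (SE 0.11, adjusted p = 0.0150) at 5 dpf and -0.53 (SE 0.07, adjusted p = 0.00125) at 2 dpf, by edgeR QL.

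Of the 9 members called lower at 2 dpf, the heterozygous mean lay between the homozygous and the WT mean in 7. Among these 7 is a gene whose heterozygous mean was level with WT (log2 fold change -0.00028). Its heterozygous libraries were at 774 and 998 CPM and its WT libraries at 890 and 882 CPM. None of the 9 was called between heterozygotes and WT by edgeR QL, which called only 28 genes lower and 58 higher of the 21336 tested at both ages. Their 2 dpf log2 fold changes in homozygotes ranged from -1.88 to -0.45. The gene with the second lowest of these, -1.65, was at 0.695 and 0.746 CPM in homozygotes, 2.31 and 2.71 CPM in heterozygotes and 2.11 and 2.43 CPM in WT, so that of the 3 groups the homozygotes were low. At 5 dpf the same gene was at 0.338 and 1.15 CPM in homozygotes and at 2.86 and 2.73 CPM in WT.

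LL0000021675 and LL0000027153 were the 2 higher members that were also called higher at 2 dpf, and they too were singled out after their values were seen. LL0000021675 was at 29.6 and 27.4 CPM in 5 dpf homozygotes and at 17.4 and 18.2 CPM in WT. At 2 dpf it was at 51.8 and 53.3 CPM in homozygotes, 41.7 and 35.8 CPM in heterozygotes and 33.5 and 32.5 CPM in WT. The groups were in the order homozygous, heterozygous, WT at 2 dpf, with no overlap, and the log2 fold change of homozygotes was 0.67 (SE 0.09, BH-adjusted p = 0.000723, edgeR QL). At 5 dpf its log2 fold change of 0.68 was not called (BH-adjusted p = 0.114, edgeR QL).

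LL0000027153 was at 13.3 and 8.90 CPM in 5 dpf homozygotes and at 7.31 and 4.79 CPM in WT. At 2 dpf it was more abundant, at 118 and 114 CPM in homozygotes, 98.0 and 105 CPM in heterozygotes and 87.5 and 84.8 CPM in WT. The 2 dpf log2 fold change was 0.43 (SE 0.06, BH-adjusted p = 0.00198, edgeR QL), and it was not called against pooled siblings (adjusted p = 0.120) or without WT replicate 2 (adjusted p = 0.0850), within a range over the alternatives of 2.46e-07 to 0.120. At 5 dpf its log2 fold change of 0.88 had an adjusted p of 0.125 (edgeR QL).

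**Figure D5:**
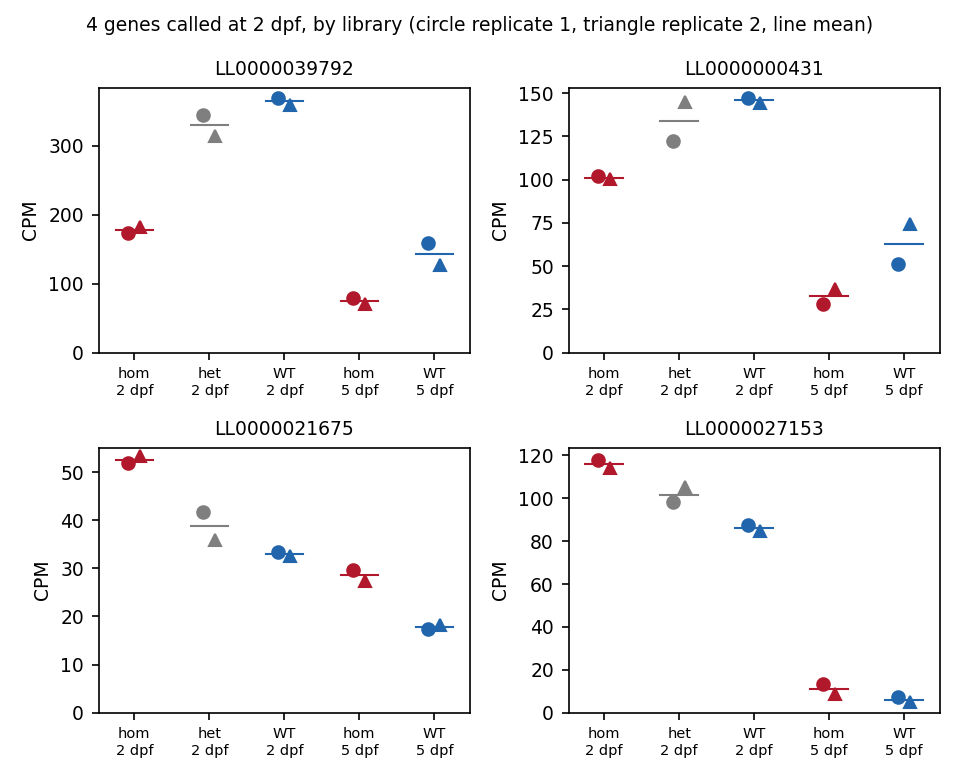
CPM of 4 members in each library of 2 dpf and 5 dpf, scaled within each age, with circles for replicate 1, triangles for replicate 2 and lines at group means. LL0000039792 and LL0000000431 are lowest in homozygotes at both ages, and LL0000021675 and LL0000027153 are highest in 2 dpf homozygotes, above heterozygotes and WT.

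The medians and shares across ages cover 319 of the 327 lower members and 153 of the 158 higher ones. They also cover 23589 of the 23654 genes tested at 5 dpf. Most of these members were scarce at 2 dpf, with a median WT level of 0.330 CPM for the lower and 0.347 CPM for the higher ones, against 6.94 CPM for all genes. With all 10 libraries on one scale, the WT level of the lower members was 1.41 higher at 5 dpf than at 2 dpf on the log2 scale at the median, against 0.20 for all genes tested at 5 dpf. In homozygotes the same median was 0.92. For the higher members the difference between ages was -0.09 in WT and 1.39 in homozygotes. In WT 66.1% of the lower members were at least 1.5-fold higher at 5 dpf, against 40.4% of all genes. For the 10 called genes, the median WT level was 0.248 CPM at 2 dpf and 38.4 CPM at 5 dpf, and 8 of them were at least 1.5-fold higher at 5 dpf. The 5 called genes that could not be tested at 2 dpf stayed between 0 and 0.563 CPM in every library of that age. Both the homozygous and the WT libraries of 5 dpf also served to choose the members. The direction of the gap between homozygotes and WT in these medians therefore follows from the rule. The rise of WT with age in the lower members, the 10 called genes among them, also rests on WT values used to choose them. How much of that rise, set against all genes, comes from the choice was not tested. Age, labelled tissue and pool size differ together between the sets, so these values are a description with no test.

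Some members had neighboring IDs, although the files do not give positions and the order of IDs was not checked against the genome. In 12 runs, 3 or more members followed each other with no gap over 10 IDs. The number of such runs that 485 members spread over 36351 IDs would give was not computed. The longest run held 5 members, 3 higher and 2 lower. The longest runs of 1 direction were 4 lower and 4 higher members. Against WT, 0.871% of all genes tested were called higher in 2 dpf homozygotes, and the share against pooled siblings is not given here. A stretch of 53 IDs held 29 genes called higher in 2 dpf homozygotes against pooled siblings. Of its 52 genes tested at 5 dpf, 2 were members, 1 higher and 1 lower, and 2.05% of all genes tested were members. The summed level of that stretch at 5 dpf was 12120 and 13610 CPM in homozygotes and 15815 and 7734 CPM in WT, so that WT replicates were on either side of both homozygous libraries.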

How the data were processed

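STAR (version 2.7.3a in the submitters' processing notes) was used by the authors to align read pairs to GRCz11 and to count them on genes of the Lawson Lab annotation. The deposited values are raw counts per gene ID, without normalization. Whether counting used strand is not given in the sources used here, so genes that overlap on opposite strands are uncertain. The counts were scaled by TMM within each age, filtered by filterByExpr and compared by the quasi-likelihood F-test of edgeR (version 4.0.16, R 4.3.3), with p-values adjusted by Benjamini-Hochberg over all genes tested. The 5 dpf fit held 4 libraries with genotype and replicate number, and the 2 dpf fit 6 libraries of 3 genotypes. Standard errors were the absolute log2 fold change over the square root of F. Each pair's change is the difference in log2 CPM, with 2 as prior count. DESeq2 1.42.0 was an alternative. The blocked 5 dpf fit, the rule of both pairs and the 2 dpf comparison of homozygotes with WT were run on simulated data. The check there was on median log2 fold changes. The interaction test and the alternatives were not run on simulated data. Replicates of every group differed by more than sampling noise. Named genes were the 2 highest and 2 lowest members of at least 1 CPM, called genes first. Members and gene choices were set with earlier results of these data known. The labels do not say that replicates came from separate clutches, so p-values measure only the spread between pools. In the 5 dpf fit they measure only the part of it left after the replicate number, with a biological coefficient of variation of 12.8%. Without the block it was 22.7%.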

Additional observations from a re-analysis of the deposited data

Results flagged for a closer look

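LL0000008617 was higher in 5 dpf homozygotes than in WT and lower at 2 dpf. It was at 90.3 and 132 CPM in homozygotes and 50.7 and 82.8 CPM in WT at 5 dpf, and at 12.2 and 13.6 CPM in homozygotes, 12.2 and 15.5 CPM in heterozygotes and 23.7 and 22.6 CPM in WT at 2 dpf. It was noticed because the difference between ages passed a test of the interaction (difference 1.64 on the log2 scale, SE 0.14, adjusted p = 0.0127, edgeR QL with the replicate number within each age). At least 16 members were looked at in this way, and the difference was also computed for all 10 genes called at 5 dpf. LL0000008617 was one of 3 genes, or 0.0121% of those tested, to pass. At 2 dpf its log2 fold change was -0.84 in homozygotes and -0.74 in heterozygotes, with adjusted p-values of 0.00277 and 0.0214 from edgeR, and at 5 dpf it was 0.75 with an adjusted p of 0.0642. Without the replicate block the difference was 1.62 and did not pass (adjusted p = 1.00, edgeR). The gene was a member because of its 5 dpf values, which enter the test.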

How the results depend on the processing

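With the replicate block the 5 dpf comparison called 10 genes, and with DESeq2's size factors the same 10. DESeq2's Wald test called 29 genes, 9 of them among the 10, at least 10 counts in every library gave 37 and no filter on low counts gave 249, both with all 10. No replicate block gave 0, and without the block the fits that left out 1 library each called 0 to 2 genes, with 206 to 1241 at an unadjusted p under 0.05. With the block no such fit was possible, since no residual degree of freedom was left. Deviations of same-numbered 5 dpf libraries correlated by 0.50 over genes, and those of 2 dpf by -0.02. There are 2 pairs and no label on what a number marks, and what these correlations reflect was not tested. The number of genes at least 1.5-fold apart in both pairs was 485, and 1218 with no filter, 273 with at least 10 counts in every library, 100 at 2-fold and 211 over all 4 pairs. It was 382 to 546 with other prior counts and 481 with DESeq2's size factors. Of the lower members, 184 were tested at 2 dpf in the main fit, 322 with no filter and 214 to 226 without 1 library each. With no filter 3.01% of all genes were called at 2 dpf, both directions together. In the main fit 0.746% were called lower and 0.871% higher. The counts that follow therefore have different bases, and the shares of all genes without 1 library each are not given here. The number of lower members called lower at 2 dpf was 9, also with a replicate block there, 18 with no filter, and 4 to 14 without 1 library each. The number of higher members called higher was 2, and 1 against pooled siblings, and 1 to 2 without 1 library each. None of the 4 genes named by rule passed the interaction between ages, with the block or without it, an alternative chosen after seeing the data (edgeR, 2063 and 941 genes of 24823 at an unadjusted p under 0.05). The causes of these differences were not tested. No direction of a named gene was reversed. DESeq2 gave no adjusted p for LL0000015434, LL0000003785 and LL0000029321 at 5 dpf. Members below 1 CPM rest on few reads, which limits their precision beside the spread between replicates.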
